A study of Mus musculus with 30 samples.

Results

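Nerve injury was compared with sham surgery in the nucleus accumbens of mice on saline, to ask what the injury alone altered in this region. The comparison holds 10 of the 30 libraries of the series, the 5 labelled Saline-SNI and the 5 labelled Saline-Sham, each made from bilateral tissue punches of 1 animal. All were male C57Bl/6J mice of an age not given in the labels, with no transgene or allele named. The SNI group had a tibial spared nerve injury (SNI), a model of lasting neuropathic pain in which some branches of the sciatic nerve are injured and others are spared, and the sham group had the operation without it. Both groups then waited 4 weeks and were injected intraperitoneally with saline 2 times per day for 3 weeks, so that weeks of injection and handling are common to both. The remaining libraries came from SNI and sham mice given tianeptine at 30 mg/kg (12 libraries) or desipramine at 15 mg/kg (8 libraries), and share no animal with the saline groups.

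The nucleus accumbens is the ventral part of the striatum and belongs to the circuits of reward, motivation and the affective side of pain. Nearly all of its neurons are medium spiny neurons, which use GABA, carry dopamine D1 or D2 receptors and make the opioid peptides dynorphin or enkephalin. Its capillaries are tubes of endothelial cells on a basement membrane of laminins, collagen IV and perlecan, wrapped by pericytes and, on larger vessels, smooth muscle.

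No gene passed the test in this comparison. The smallest p values belonged to Lamc1, a laminin chain, which was lower in SNI, and to the metallothionein gene Mt2, which was higher. Metallothioneins are small proteins that bind zinc and copper, and some of them are induced by metals through metal response elements in their promoters. The promoters of the 3 metallothionein genes of brain are shown because all 3 were higher in SNI on saline at an unadjusted p under 0.05. They come from the RefSeq promoter table of build GRCm38.p6 and run from 250 bases before to 50 bases after the start of the gene. Capitals mark matches, on either strand, to TGCACNC or TGCGCNC, the 7-base core of the metal response element.
Mt2 promoter, chr8:94172368-94172667, plus strand: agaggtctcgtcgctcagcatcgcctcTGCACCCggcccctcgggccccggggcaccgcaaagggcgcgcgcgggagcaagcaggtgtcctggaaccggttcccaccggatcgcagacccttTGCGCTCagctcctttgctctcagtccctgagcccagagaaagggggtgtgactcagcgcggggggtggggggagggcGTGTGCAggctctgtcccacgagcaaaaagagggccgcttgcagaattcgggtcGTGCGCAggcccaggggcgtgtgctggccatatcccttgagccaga
Mt1 promoter, chr8:94178839-94179138, plus strand: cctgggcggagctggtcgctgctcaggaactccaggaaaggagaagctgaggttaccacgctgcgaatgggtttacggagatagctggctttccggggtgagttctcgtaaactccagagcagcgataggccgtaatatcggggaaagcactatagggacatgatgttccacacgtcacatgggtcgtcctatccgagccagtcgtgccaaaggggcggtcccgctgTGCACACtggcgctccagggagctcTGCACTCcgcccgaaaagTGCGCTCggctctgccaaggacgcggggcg
Mt3 promoter, chr8:94152357-94152656, plus strand: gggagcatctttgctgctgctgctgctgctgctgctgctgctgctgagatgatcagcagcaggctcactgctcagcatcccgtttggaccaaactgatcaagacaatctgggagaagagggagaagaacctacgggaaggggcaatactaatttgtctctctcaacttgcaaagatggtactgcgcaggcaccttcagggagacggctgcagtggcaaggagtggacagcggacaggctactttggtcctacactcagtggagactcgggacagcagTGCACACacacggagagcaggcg
The Mt2 window held 4 such matches, the Mt1 window 3 and the Mt3 window 1. Of 32851 promoter windows of this length in the table, 25.7% held at least 1 match, 1.97% at least 3 and 0.517% at least 4. A match describes letters in the window and not a bound site.

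Total counts ran from 24.5 to 120.7 M (mega, with a median of 34.8 M) in sham libraries and from 27.5 to 98.0 M (median 32.1 M) in SNI libraries. In each group replicate 5 carries another series of library numbers and was by far the deepest, so this library set entered the fit as a covariate. In the first set the libraries are numbered by group, 21 to 24 for sham and 9 to 12 for SNI, and an effect of that order cannot be told apart from injury. Mitochondrial counts were 0.991% to 1.85% of the total in sham and 1.26% to 1.85% in SNI, and the lowest share was that of sham replicate 2. All markers of accumbens medium spiny neurons were abundant in every library. Ppp1r1b, which encodes the dopamine signalling protein DARPP-32, ran from 552 to 872 counts per M (CPM) in sham and from 438 to 786 CPM in SNI, and Drd1 from 180 to 271 CPM and from 142 to 220 CPM. Sham replicates 2 and 3 stood apart from the other sham libraries in immune genes, and replicate 3 also in pericyte, basement membrane and meningeal genes. List counts and the genes with the largest shifts are also given without these 2 libraries. Because they were picked for high values of such genes, smaller differences without them follow in part from that choice.

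SNI and sham were compared over 23736 genes with edgeR's quasi-likelihood test, and 0 genes (0%) passed an adjusted p of 0.05. At an unadjusted p under 0.05 there were 2311 genes (9.74% of those tested), of which 1079 (4.55%) were higher in SNI and 1232 (5.19%) lower, and none of these passed the adjusted test. Without SNI replicate 3 these counts were 556 and 801, and without SNI replicate 4 they were 678 and 808. DESeq2 called 1 gene, Mt2 (adjusted p = 0.0347, against 0.0347 to 0.778 over all alternatives tried), and limma-voom called 0. The median log2 fold change over all genes was 0.002, and 49.4% of genes were lower in SNI. In 81 genes (0.341%) each SNI library lay above each sham library, and in 96 (0.404%) each lay below.

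Mt2 had the smallest p among the higher genes. Its level was 27.6, 30.6, 30.9, 23.6 and 20.3 CPM in sham replicates 1 to 5 and 45.6, 35.1, 34.0, 46.3 and 23.8 CPM in SNI replicates 1 to 5. The 4 SNI libraries of the first set were above every sham library, while SNI replicate 5 was inside the sham range and above its own sham partner of the second set. The log2 fold change, SNI minus sham, was 0.46 ± 0.09 (SE) with a 95% interval, not adjusted for the number of genes, of 0.27 to 0.65 (edgeR adjusted p = 0.404). Mt1, its neighbour on chromosome 8, differed by 0.24 ± 0.09 with means of 103 ± 19.7 CPM in sham and 123 ± 27.0 CPM in SNI (SD, n = 5 each). Mt3, the metallothionein of neurons and astrocytes, differed by 0.20 ± 0.06, with 99.8 to 173 CPM in sham and 116 to 185 CPM in SNI. For Mt1 and Mt3 the groups overlapped. Of 14 genes for metallothioneins and metal transport, 3 were higher at an unadjusted p under 0.05, these same genes, and 1 was lower, the copper oxidase gene Cp, at -0.85 ± 0.29, or -0.20 without sham replicate 3. Cp was 60.8 CPM in sham replicate 3 and 14.2 to 17.9 CPM in the other sham libraries, against 11.9 to 17.1 CPM in SNI.

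The other higher genes of smallest p were a mixed set. Gstz1, an enzyme of tyrosine breakdown, was 49.7, 48.2, 50.9, 53.9 and 48.8 CPM in sham and 59.4, 57.1, 64.2, 66.0 and 55.5 CPM in SNI. Each SNI library was above each sham library, with a log2 fold change of 0.26 ± 0.06 (adjusted p = 0.404). Gsta4, which detoxifies products of lipid peroxidation, differed by 0.47 ± 0.17, and its groups overlapped. Dynlrb1, a light chain of the dynein motor, was 92.1, 90.4, 90.7, 79.6 and 76.1 CPM in sham and 113, 106, 105, 106 and 79.9 CPM in SNI. Here too the 4 SNI libraries of the first set were above all sham libraries and SNI replicate 5 was not, with a log2 fold change of 0.24 ± 0.05 (adjusted p = 0.404). Clpp, a protease of the mitochondrial matrix, showed the same layout, at 48.1 to 51.0 CPM in SNI replicates 1 to 4 and 35.8 CPM in replicate 5 against 35.2 to 47.4 CPM in sham (0.22 ± 0.06). Groups stood fully apart for Cradd, an adaptor of caspase signalling, at 7.49 to 8.75 CPM in sham and 9.09 to 10.6 CPM in SNI (0.27 ± 0.07). They were also apart for Klhl22, an adaptor of a ubiquitin ligase, at 89.0 to 92.8 CPM and 97.4 to 106 CPM (0.15 ± 0.04), and for Fam71e1, at 6.81 to 7.22 CPM and 7.90 to 10.2 CPM (0.32 ± 0.08). Glrx3, a glutaredoxin of iron handling, at 0.17 ± 0.05, the nucleolar gene Gnl3 at 0.23 ± 0.06 and Chchd6, a mitochondrial inner membrane gene, at 0.22 ± 0.06 complete the 10 higher genes of smallest p. The plot of 12 genes by library shows these layouts beside those of vessel, receptor and immune genes.

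**Figure D1:**
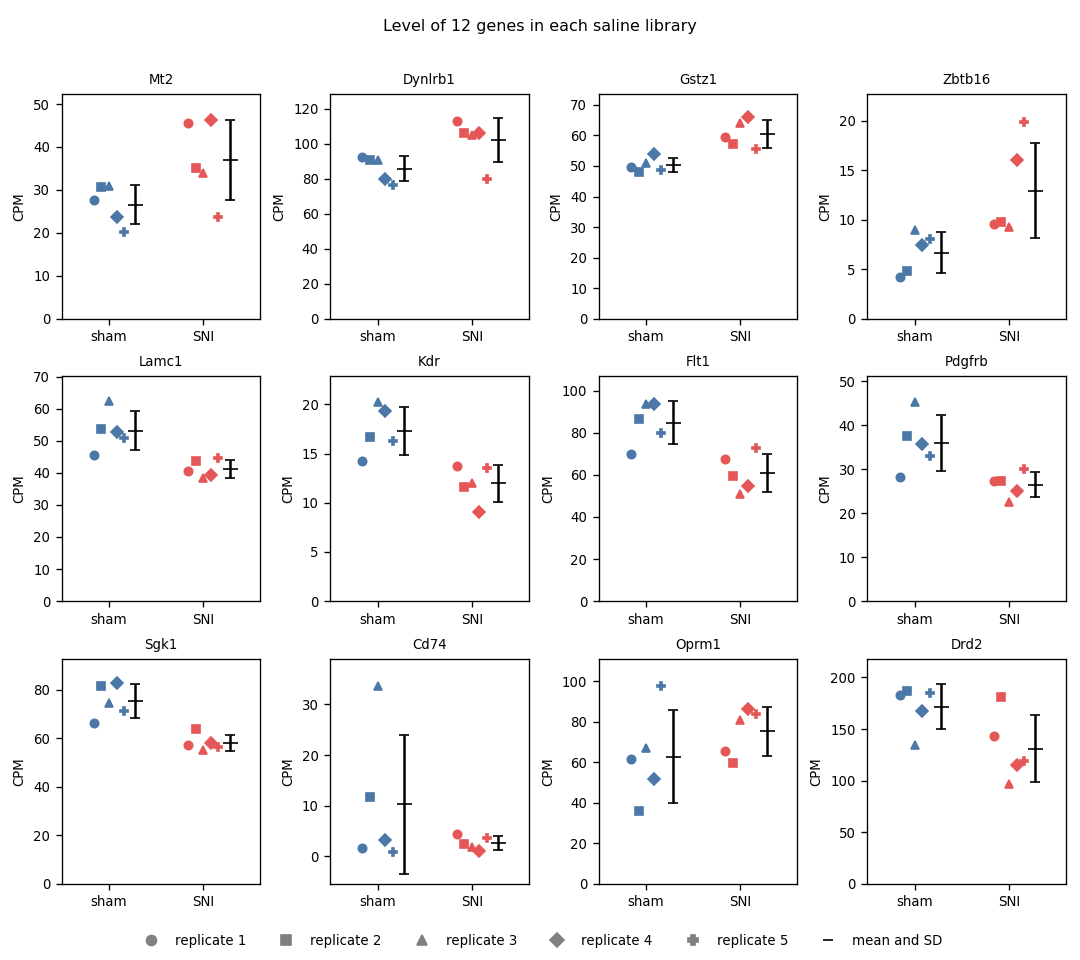
Level in CPM of 12 genes in each of the 10 saline libraries, sham in blue and SNI in red, with 1 symbol per replicate and the mean and SD of each group in black. Groups do not overlap for Gstz1, Zbtb16, Lamc1, Kdr and Sgk1, while the spread of Cd74 in sham comes from replicates 2 and 3, at 11.7 and 33.6 CPM.

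Most genes of the vessel lists had lower values in SNI, none of them past the threshold. Lamc1, a laminin chain of the basement membrane (chr1:153218922-153332786, minus strand, mm10), had the smallest p of all genes. It was 45.7, 53.5, 62.5, 52.9 and 51.0 CPM in sham and 40.6, 43.7, 38.3, 39.2 and 44.7 CPM in SNI. Every SNI library was below every sham library, and the log2 fold change was -0.37 ± 0.07 with an interval of -0.52 to -0.22 (adjusted p = 0.404). Kdr, the main receptor for the endothelial growth factor VEGF (chr5:75932827-75978458, minus strand), was 14.2, 16.7, 20.2, 19.3 and 16.3 CPM in sham and 13.8, 11.6, 12, 9.03 and 13.5 CPM in SNI. The groups were again apart, by the narrow gap between sham replicate 1 and SNI replicate 1, with a log2 fold change of -0.54 ± 0.13 (adjusted p = 0.404).

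All 22 endothelial markers were lower in SNI, 12 of them at an unadjusted p under 0.05, with a median log2 fold change of -0.36. Over all genes, 49.4% were lower and 5.19% were lower at that p. Flt1, a second VEGF receptor that binds the factor without strong signalling, was 69.8 to 93.8 CPM in sham and 50.7 to 72.7 CPM in SNI, and only SNI replicate 5 exceeded the lowest sham library. Pecam1 and Cdh5, which hold endothelial cells together, differed by -0.54 ± 0.15 and -0.64 ± 0.18, and Tek, the angiopoietin receptor, by -0.37 ± 0.10. Eng, a co-receptor for TGF-beta on endothelium, differed by -0.57 ± 0.16. In all 4 of these genes sham replicate 1 was below the highest SNI library. The summed level of the 22 markers ran from 507.2 to 784.7 CPM in sham and from 447.3 to 586.8 CPM in SNI. In bulk tissue, fewer cells of a type and less RNA of these genes per cell cannot be told apart.

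The cells around the vessels gave like values. All 16 markers of pericytes and smooth muscle were lower, 12 at an unadjusted p under 0.05, with a median of -0.54. Pdgfrb, the growth factor receptor that keeps pericytes on vessels, was 28.1, 37.5, 45.3, 35.6 and 32.9 CPM in sham and 27.4, 27.4, 22.6, 25.0 and 30.1 CPM in SNI. Its log2 fold change was -0.44 ± 0.11 (adjusted p = 0.404), and SNI replicate 5 was above sham replicate 1. Vtn, a matrix protein made by pericytes, differed by -0.64 ± 0.20, and Rgs5, a pericyte regulator of G proteins, by -0.32 ± 0.10. Among basement membrane genes 15 of 17 were lower, 8 at an unadjusted p under 0.05. Hspg2, which encodes perlecan, differed by -0.90 ± 0.22, Lamb2, another laminin chain, by -0.62 ± 0.18 and Nid1, the linker of laminin to collagen IV, by -0.85 ± 0.25. Sparc, a collagen-binding protein also made by astrocytes, was the 1 member higher at an unadjusted p under 0.05, at 0.81 ± 0.33. Of 24 genes of VEGF, angiopoietin and TGF-beta signalling, 19 were lower, 13 of them at an unadjusted p under 0.05, among them Tgfb1 at -0.40 ± 0.14. Tjp1, the tight junction scaffold, at -0.22 ± 0.05, and Dag1, the laminin receptor dystroglycan, at -0.17 ± 0.04, were also among the 10 lower genes of smallest p, with the groups apart for Dag1 at 128 to 139 CPM in sham and 113 to 121 CPM in SNI. The other lower genes of smallest p included Elf1, an ETS transcription factor of blood and vessel cells, with the groups apart (-0.30 ± 0.07), the actin capping partner Rcsd1 (-0.57 ± 0.13) and the lipid phosphatase gene Inppl1 (-0.38 ± 0.09). The plot of fold changes by list shows the medians of the endothelial, pericyte and basement membrane lists left of 0.

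**Figure D2:**
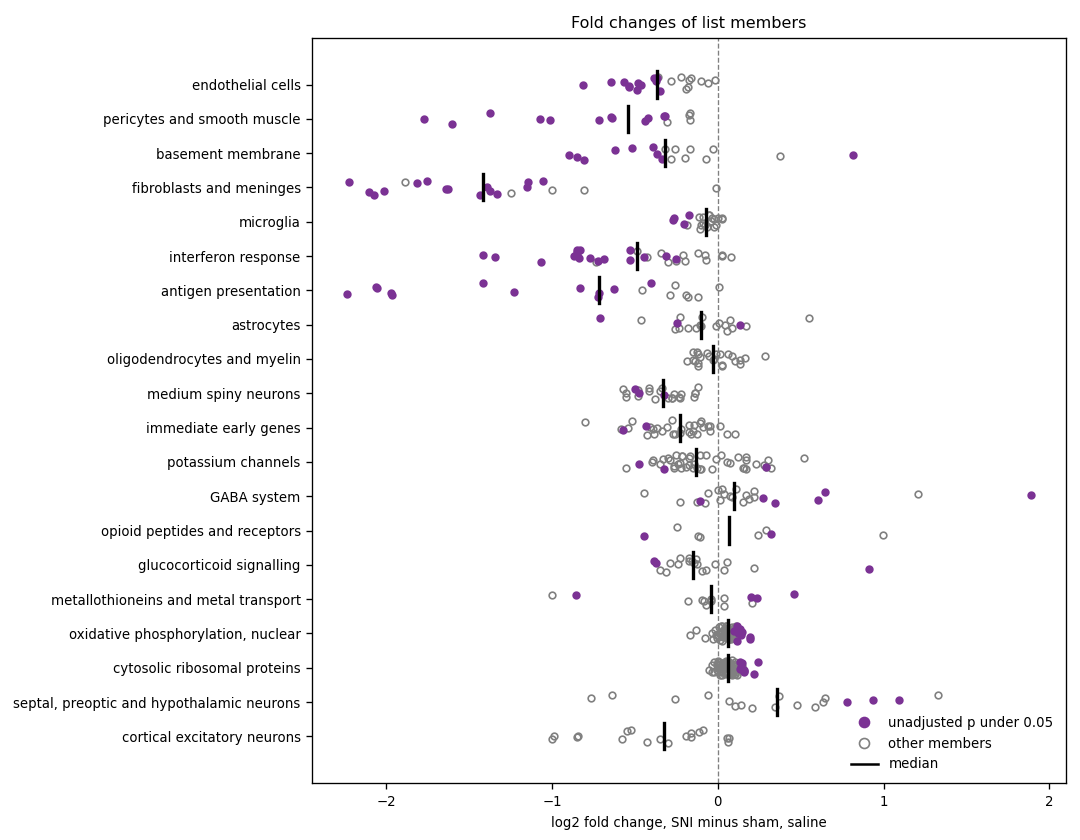
Log2 fold change, SNI minus sham on saline, of each tested member of 20 gene lists, with members at an unadjusted p under 0.05 filled and the list median as a black bar. Medians run from -1.41 for fibroblasts and meninges to 0.36 for septal, preoptic and hypothalamic neurons, and no member of any list passed the adjusted test.

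The vessel values rest in part on 1 sham library. The list score, the mean of log2 CPM over members with each gene centred on its mean over all 30 libraries, was -0.20, 0.35, 0.50, 0.22 and 0.00 for endothelial cells in sham and 0.08, -0.13, -0.37, -0.27 and -0.07 in SNI. For pericytes and smooth muscle it was -0.29, 0.20, 1.24, 0.21 and -0.08 in sham and 0.17, -0.19, -0.47, -0.34 and -0.23 in SNI. Sham replicate 3 was the highest library in both lists, and the groups overlapped. Without sham replicate 3, 6 pericyte and smooth muscle markers and 4 basement membrane genes were lower at an unadjusted p under 0.05. Without sham replicates 2 and 3 together, 16 of the endothelial markers were lower, 4 of them at that p, 14 of the pericyte and smooth muscle markers with 3, and 14 of the basement membrane genes with 2. Single genes shifted unequally without those 2 libraries. Kdr stood at -0.46, Flt1 at -0.40, Tek at -0.31, Rgs5 at -0.35 and Lamc1 at -0.26. Pecam1 stood at -0.25, Cdh5 at -0.29, Eng at -0.36, Pdgfrb at -0.27, Hspg2 at -0.45, Lamb2 at -0.21, Nid1 at -0.24, Vtn at -0.15 and Tgfb1 at -0.10. The list medians were -0.17 for endothelial cells, -0.22 for pericytes and smooth muscle and -0.16 for basement membrane. All were still below 0, and none of these genes passed the test under any alternative.

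Fibroblast and meningeal markers had the lowest median of the 45 lists, -1.41, and all 20 were lower, 15 at an unadjusted p under 0.05. Beside them, 49.4% of all genes were lower and 5.19% lower at that p. Fmod, a collagen-binding proteoglycan of connective tissue, was 8.87, 12.3, 84.1, 13.2 and 2.86 CPM in sham and 11.7, 8.91, 2.58, 2.75 and 2.75 CPM in SNI. One sham library held most of this difference of -2.10 ± 0.77. Slc22a6, an organic anion transporter of the meninges, was 36.4 CPM in the same library and at most 5.97 CPM in all others (-2.23 ± 0.88). The collagen gene Col1a1 at -1.15 ± 0.38, the transporter gene Slc6a13 at -1.62 ± 0.56 and the growth factor gene Igf2 at -1.43 ± 0.52 had the same high library. The list score was 2.97 in sham replicate 3 and between -0.99 and 0.60 in the other sham libraries, against -1.03 to 0.71 in SNI, and the summed level was 120.4 to 892 CPM in sham and 118.5 to 221.3 CPM in SNI. Without sham replicate 3, 0 of these markers were lower at an unadjusted p under 0.05 and the median was -0.32, with Fmod at -0.70, Slc22a6 at -0.70, Col1a1 at -0.34, Slc6a13 at -0.52 and Igf2 at -0.30. Vessel, basement membrane and meningeal markers moved together in that library, and the part of the meningeal signal in the vessel values was not tested.

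**Figure D3:**
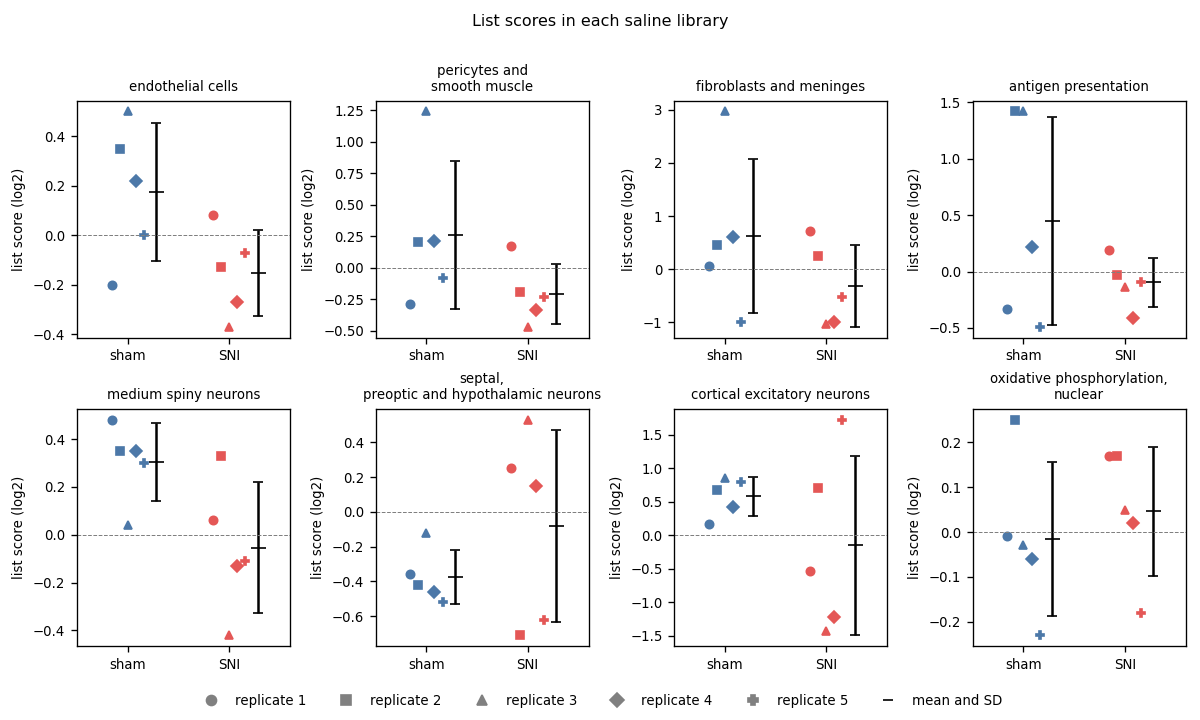
List score (mean log2 CPM over members, centred per gene over all 30 libraries) of 8 gene lists in each saline library, with 1 symbol per replicate and the mean and SD of each group in black. Sham replicate 3 reached 2.97 for fibroblasts and meninges, and SNI replicates 1, 3 and 4 had septal scores of 0.25, 0.53 and 0.15 with cortical scores of -0.54, -1.43 and -1.22.

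Interferon and antigen presentation genes were high in sham replicates 2 and 3. Of 31 interferon response genes, 28 were lower, 16 at an unadjusted p under 0.05, with a median of -0.49. The shares over all genes were 49.4% lower and 5.19% lower at that p. Parp14, an interferon-induced ADP-ribosyltransferase, differed by -0.85 ± 0.22, and Irf9, a transcription factor of the interferon signal, by -0.31 ± 0.09. Of 19 antigen presentation genes, 18 were lower, 12 at that p, with a median of -0.72. Cd74, the chaperone of MHC class II, was 1.68, 11.7, 33.6, 3.30 and 0.886 CPM in sham and 4.43, 2.38, 1.88, 1.09 and 3.53 CPM in SNI, with a log2 fold change of -2.05 ± 0.70 (adjusted p = 0.436). Sham replicate 5 was the lowest of the 10 libraries and sham replicate 1 the third lowest, so the groups overlapped widely. H2-Aa, a chain of MHC class II, differed by -2.24 ± 0.74 and was 18.2 CPM in sham replicate 3, 4.44 CPM in replicate 2 and at most 2.07 CPM in the other 8 saline libraries. Nlrc5, the activator of MHC class I genes, was 7.94 CPM in sham replicate 2, 1.39 to 2.66 CPM in the other sham libraries and 0.905 to 1.48 CPM in SNI (-1.41 ± 0.42). The antigen presentation score was 1.42 in both sham replicates 2 and 3 and -0.49 to 0.22 in the others. Reads of class I genes such as H2-D1 can be shared among close relatives, so their counts are less certain.

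Without sham replicates 2 and 3, 12 interferon genes were lower and the list median was 0.07, and 6 antigen presentation genes were lower with a median of 0.07. At an unadjusted p under 0.05, 0 genes of either list were then lower, Cd74 stood at 0.44 and H2-Aa at 0.33. Without sham replicate 2 alone, 6 interferon and 6 antigen presentation genes were lower at that p, and without sham replicate 3 alone, 7 and 4. The interferon median was -0.35 without sham replicate 2 alone and -0.26 without sham replicate 3 alone, and that of antigen presentation -0.28 and -0.60. Without sham replicate 3 alone Cd74 stood at -0.79 and H2-Aa at -0.69, and without sham replicate 2 alone Nlrc5 at -0.71. Parp14 stood at -0.27 and Irf9 at -0.15 without both. Limma-voom gave -0.42 for Cd74 and -0.40 for H2-Aa. Microglia, the resident immune cells, showed small values, with 20 of 22 markers lower, 4 at that p and a median of -0.07. Csf1r, the receptor that keeps microglia alive, differed by -0.20 ± 0.09, and Cx3cr1, the fractalkine receptor, by -0.03 ± 0.05 with an interval of -0.13 to 0.07. Gfap, the filament gene of reactive astrocytes, was 55.0, 80.6, 127, 69.2 and 27.8 CPM in sham and 76.5, 55.8, 49.9, 19.6 and 62.0 CPM in SNI. It differed by -0.46 ± 0.41 with an interval of -1.31 to 0.38, and by 0.06 without sham replicates 2 and 3. Of 20 astrocyte markers 12 were lower and 8 higher, and of 24 oligodendrocyte and myelin markers 14 were lower and 10 higher, with 0 of the latter at an unadjusted p under 0.05 in either direction.

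All 24 medium spiny neuron markers were lower in SNI, with a median of -0.33, and 3 (12.5%) had an unadjusted p under 0.05. Among all genes tested, 49.4% were lower and 5.19% lower at that p. Drd2, the dopamine receptor of the indirect pathway, was 183, 187, 135, 168 and 185 CPM in sham and 143, 181, 96.4, 115 and 119 CPM in SNI. SNI replicate 2 and sham replicate 3 crossed the groups, and the difference was -0.39 ± 0.32, with an interval of -1.05 to 0.27. Drd1, the receptor of the direct pathway, differed by -0.42 ± 0.35 (interval -1.15 to 0.31) and Adora2a, the adenosine receptor paired with D2, by -0.44 ± 0.38. These were the lowest values in the lists of direct (D1) and indirect (D2) pathway genes. Of 9 D1 pathway genes 7 were lower (median -0.18), and of 9 D2 pathway genes 6 (median -0.08). At an unadjusted p under 0.05, 0 were lower in either list and 1 D1 pathway gene was higher. In the first library set 4 of the D2 pathway genes were lower (median 0.07). Pde10a, the striatal phosphodiesterase, was 1044 to 1669 CPM in sham and 498 to 1323 CPM in SNI (-0.57 ± 0.35), and Itpr1, a calcium release channel, differed by -0.50 ± 0.24. Shank3, a postsynaptic scaffold that is not among the 24 markers, was 432 to 524 CPM in sham and 299 to 420 CPM in SNI. Its groups did not overlap, with a difference of -0.37 ± 0.16 (edgeR adjusted p = 0.466). Of the 24 markers, 0 had the groups apart, and over all genes only 0.404% were apart and lower. The list score was 0.48, 0.35, 0.04, 0.35 and 0.30 in sham and 0.06, 0.33, -0.42, -0.13 and -0.11 in SNI. The number of these markers lower at an unadjusted p under 0.05 was 0 without sham replicate 1, 2 or 4 or SNI replicate 3 or 4, 1 without SNI replicate 5, and 15 when only the 10 saline libraries entered the fit.

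Opioid genes split by direction, with 4 of 8 lower and 4 higher and a median of 0.07. Oprm1, the mu-opioid receptor, was 61.8, 35.9, 66.9, 51.5 and 97.9 CPM in sham and 65.6, 59.4, 81.0, 86.5 and 83.9 CPM in SNI. The highest and the lowest of the 10 values were both sham, and the difference was 0.29 ± 0.15 with an interval of -0.03 to 0.60. Oprd1, the delta-opioid receptor, was 26.5 to 40.0 CPM in sham and 12.8 to 31.5 CPM in SNI, a difference of -0.44 ± 0.21 (adjusted p = 0.509). Oprl1, the nociceptin receptor, was 32.7 to 40.0 CPM in sham and 36.2 to 57.3 CPM in SNI, a difference of 0.32 ± 0.15 (adjusted p = 0.506). Oprk1, the kappa-opioid receptor that dynorphin activates, differed by -0.25 ± 0.26 (interval -0.79 to 0.30). Penk, the enkephalin precursor, differed by -0.12 ± 0.26 (interval -0.66 to 0.43) with means of 844 ± 196 CPM in sham and 785 ± 187 CPM in SNI (SD, n = 5 each). Pdyn, the dynorphin precursor, differed by -0.11 ± 0.36, and by 0.02 without sham replicate 5. Pnoc, the nociceptin precursor, was 2.08 to 4.57 CPM in sham and 2.56 to 8.67 CPM in SNI, with means of 2.64 ± 1.08 and 5.29 ± 2.23 CPM (SD, n = 5 each). These intervals do not settle a direction for Oprm1, Oprk1, Penk or the dopamine receptors.

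Genes induced by neuronal activity were lower in 30 of 33, against 49.4% of all genes, with a median of -0.23. At an unadjusted p under 0.05, 2 (6.06%) were lower, near the 5.19% over all genes. Egr1, an immediate early transcription factor, was 110 to 206 CPM in sham and 64.9 to 147 CPM in SNI (-0.54 ± 0.30), and Homer1, an activity-induced synaptic scaffold, differed by -0.42 ± 0.21. Fos was 6.06, 10.4, 15.1, 4.05 and 17.2 CPM in sham and 9.72, 13.9, 4.06, 15.3 and 7.32 CPM in SNI, with no separation and an interval of -1.19 to 1.02. Its difference of -0.09 ± 0.54 became 0.21 without sham replicate 5. Bdnf, the neurotrophin, was 14.3 CPM in SNI replicate 5 and 1.01 to 7.75 CPM in the other 9 libraries, a difference of -0.32 ± 0.74 that became 0.20 without sham replicate 3.

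Among 20 genes of glucocorticoid signalling, 16 were lower, with a median of -0.15. At an unadjusted p under 0.05, 2 (10%) were lower and 1 (5%) higher, near the 5.19% and 4.55% over all genes. The groups were apart for each of those 3. Over all genes, 0.404% were apart and lower and 0.341% apart and higher. Zbtb16, a zinc finger gene induced by glucocorticoids, was 4.21, 4.84, 8.95, 7.44 and 8.03 CPM in sham and 9.61, 9.76, 9.28, 16.1 and 19.9 CPM in SNI. It differed by 0.91 ± 0.32 (interval 0.25 to 1.58, adjusted p = 0.436). Sgk1, a kinase induced by the same hormones, was 66.2, 81.4, 74.6, 82.9 and 71.0 CPM in sham and 57.4, 63.7, 55.1, 57.9 and 56.5 CPM in SNI, a difference of -0.37 ± 0.15. Cdkn1a, the cell cycle inhibitor p21, was 16 to 22.1 CPM in sham and 9.59 to 15.7 CPM in SNI, a difference of -0.39 ± 0.14. Sgk1 and Cdkn1a were thus lower in all SNI libraries while Zbtb16 was higher in all.

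Among the higher genes, the largest fold changes came from genes that were high in only some SNI libraries. Gabrq, a GABA receptor subunit of hypothalamic and monoaminergic neurons, was 2.48, 2, 1.63, 4.91 and 1.52 CPM in sham and 9.07, 1.45, 32.0, 13.5 and 1.13 CPM in SNI. Irs4, an insulin receptor substrate of the hypothalamus, was 1.07 to 3.43 CPM in sham and 6.79, 0.723, 20.5, 8.24 and 1.43 CPM in SNI. Ngb, the oxygen-binding neuroglobin, was 1.18 to 5.68 CPM in sham and 8.32, 2.23, 20.7, 13 and 2.15 CPM in SNI. In each, SNI replicates 1, 3 and 4 were above all sham libraries and SNI replicates 2 and 5 were inside the sham range or below it. The log2 fold changes were 1.89 ± 0.76 for Gabrq, 1.83 ± 0.78 for Irs4 and 1.55 ± 0.58 for Ngb. Nespas, an antisense transcript of the imprinted Gnas locus, differed by 2.39 ± 0.88 with the same 3 libraries high. No source used here gives the strand setting of the counting, so its counts may hold reads of the opposite strand.

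Markers of tissue next to the accumbens varied in the same SNI libraries. Of 18 tested markers of septal, preoptic and hypothalamic neurons 14 were higher, with a median of 0.36, 3 of them at an unadjusted p under 0.05, and 5 of the 23 listed were too low to test. Their summed level was 673.6 to 864 CPM in sham and 549.2 to 1530 CPM in SNI. Baiap3, a secretion gene of hypothalamic neurons, was 85.0 to 103 CPM in sham and 178, 83.3, 344, 297 and 57.8 CPM in SNI, and Lhx6, a transcription factor of ventral forebrain interneurons, was 28.6 to 38.3 CPM and 82.1, 27.8, 77.5, 74.3 and 22.9 CPM. The GABA transporter gene Slc6a11 at 0.65 ± 0.27 and Sparc, at 422, 155, 480, 394 and 124 CPM in SNI against 134 to 226 CPM in sham, were high in the same libraries. Cortical excitatory neuron markers ran the other way, with summed levels of 406.4 to 1756 CPM in SNI and 685.1 to 977.7 CPM in sham. The zinc transporter gene Slc30a3 of cortical terminals was 3.00, 20.4, 0.922, 1.03 and 67.7 CPM in SNI. The medium spiny neuron score was also lowest in SNI replicate 3. The saline contrast was also fitted with the list scores of cortical, septal and choroid plexus markers (tissue scores) as covariates. In that fit 24 medium spiny markers were lower, 3 of them at an unadjusted p under 0.05. The part of such tissue in the activity and GABA values was not tested.

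Tnnt1, the troponin T gene of slow muscle, was 13.1, 21.3, 4.02, 13.8 and 2.60 CPM in sham and 1.29, 6.35, 0.799, 0.875 and 1.61 CPM in SNI, with a difference of -2.28 ± 0.78. It was the lowest of the 4 genes named for a large negative fold change, and SNI replicate 2 was its high SNI library.

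Genes of mitochondrial respiration and of the ribosome were slightly higher. Of 75 nuclear genes of oxidative phosphorylation 66 were higher, 10 (13.3%) at an unadjusted p under 0.05, with a median of 0.06. Of all 23736 genes 12022 were higher, and 4.55% were higher at that p. Ndufv2, a subunit of complex I, was 118, 99.0, 108, 109 and 103 CPM in sham and 135, 130, 128, 125 and 100 CPM in SNI (0.20 ± 0.06). Of 78 cytosolic ribosomal protein genes 70 were higher, 9 at that p, with a median of 0.06, and Rpl21 differed by 0.25 ± 0.08. Many ribosomal protein genes have pseudogene copies that can share reads. Sham replicate 2 had the highest score of its group for both lists, 0.25 for each, and the lowest score for transcripts of the mitochondrial genome, -0.71 against -0.68 to 0.49 in the other sham libraries. Without sham replicate 2, 44 of the oxidative phosphorylation genes and 39 of the ribosomal protein genes were higher at an unadjusted p under 0.05. Those counts were as low as 3 without sham replicate 4 or SNI replicate 1 for the former and 3 without SNI replicate 3 for the latter. Without sham replicate 1 they were 6 and 5, without sham replicate 3 the former was 4, without SNI replicate 2 it was 6, and without sham replicate 4 the latter was 5.

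The 2 library sets were also read apart. In the first set, with 4 libraries per group, all 22 endothelial, 16 pericyte and 20 fibroblast markers were lower in SNI, with medians of -0.44, -0.65 and -1.63. In the second set, with 1 library per group and so no test, 15 endothelial markers were lower (median log2 ratio -0.07), 15 pericyte markers (-0.08) and 5 fibroblast markers (0.24), beside 12720 of all 23736 genes. Of the 19 antigen presentation genes 7 were lower in the second set, and of the 31 interferon genes 19. Medium spiny markers were lower in 24 of 24 in both sets, with medians of -0.31 and -0.41. Mt2 differed by 0.51 ± 0.11 in the first set and had a log2 ratio of 0.23 in the second. Lamc1 gave -0.42 and -0.19, and Kdr -0.61 and -0.26. Mt2, Lamc1 and Kdr were named for a small p, and some other named genes changed sign between the sets. Cd74 was -2.397 in the first set and 1.995 in the second, H2-Aa -2.58 and 2.29, and Gfap -0.73 and 1.155. Oprm1 was 0.43 and -0.22, and Gabrq 2.33 and -0.43. How many named genes kept their sign in both sets was not counted.

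The same surgery contrast was available in mice on tianeptine and on desipramine, from the same fit and from other animals. On tianeptine 0 of 23736 genes (0%) passed, and 287 (1.21%) had an unadjusted p under 0.05. On desipramine 2682 (11.3%) passed, and 6562 (27.6%) had that unadjusted p. Over all genes 49.4% were lower in SNI on tianeptine and 49% on desipramine. For endothelial markers 7 of 22 were lower on tianeptine (median 0.04) and 21 of 22 on desipramine (median -0.14). Pericyte and smooth muscle markers were lower in 3 of 16 on tianeptine (median 0.06) and 13 on desipramine (median -0.30). Medium spiny markers were lower in 16 of 24 on tianeptine (median -0.03) and in 24 on desipramine (median -0.59). On desipramine the median was -1.38 for cortical excitatory neurons and 0.69 for septal, preoptic and hypothalamic neurons, against 0.145 and -0.036 on tianeptine. The part of such neighbouring tissue in the medium spiny values on tianeptine or desipramine was not tested. Zbtb16 differed by 0.21 ± 0.29 on tianeptine and -0.24 ± 0.36 on desipramine, Sgk1 by 0.14 ± 0.13 and -0.20 ± 0.16, and Oprm1 by 0.17 ± 0.14 and -0.15 ± 0.17.

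The 20 genes of smallest p on saline were read in the other animals. On tianeptine 6 of the 20 had the same sign as on saline and 0 had an unadjusted p under 0.05, with values from -0.11 to 0.15. On desipramine 16 had the same sign, and 8 of the 20 had an unadjusted p under 0.05 in either direction, beside 27.6% of all genes. The share of all genes with the same sign as on saline was not counted, so these sign counts have no background. Cradd, higher on saline, was -0.18 ± 0.08 on desipramine. Lamc1 was 0.04 ± 0.07 on tianeptine and -0.24 ± 0.08 on desipramine, Mt2 -0.09 ± 0.08 and 0.22 ± 0.10, and Kdr 0.04 ± 0.12 and -0.20 ± 0.14. Glrx3, at 0.20 ± 0.05 with an adjusted p of 0.0161, passed on desipramine, as did 11.3% of all genes. The difference of the SNI effect between saline and tianeptine was tested over all genes, and 0 passed (0%), with 997 (4.2%) at an unadjusted p under 0.05 and the smallest adjusted p of the 20 genes at 0.989. Between saline and desipramine 0 passed (0%), with 2916 (12.3%) at an unadjusted p under 0.05, while DESeq2 called 100. With edgeR, leaving out sham replicate 2 gave 20 and leaving out sham replicates 2 and 3 gave 3. For Mt2 the unadjusted p of the difference was 0.00016 against tianeptine and 0.1 against desipramine. Because the 20 genes were chosen by their p on saline, their differences from other animals are given as a description.

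**Figure D4:**
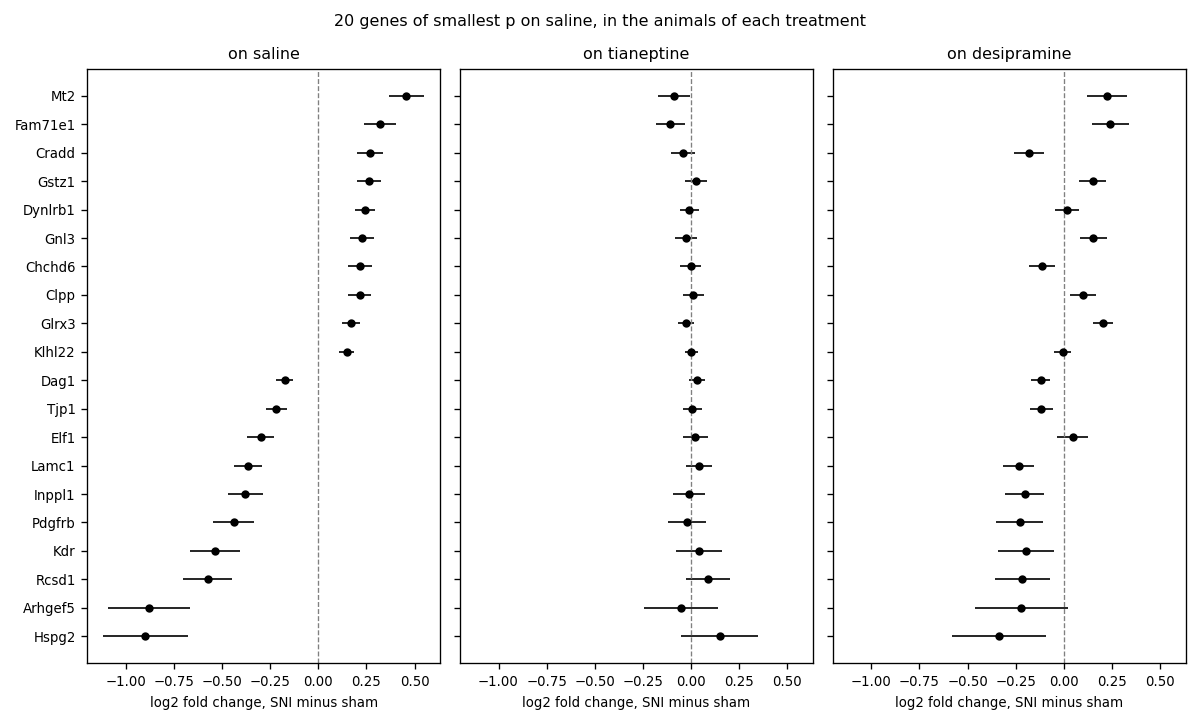
Log2 fold change, SNI minus sham, with its standard error, of the 20 genes of smallest p on saline, in mice on saline, tianeptine and desipramine, which share no library. Tianeptine values run from -0.11 to 0.15, and on desipramine 16 of 20 genes lie on the same side of 0 as on saline. The same share over all genes was not counted.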

How the data were processed

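RNA sequencing of polyadenylated RNA from the nucleus accumbens gave the authors' deposited table of whole-number counts per gene for 30 libraries. Per the submitters' processing notes, Trim Galore, HISAT2, SAMtools, featureCounts and build mm10 were used. Versions, the strand setting of the counting and the annotation release were not given in the sources used here. A deposited FPKM table was not used, and 0 sample columns of the count table were left unused. Gene symbols were matched by ID, 54349 of 55401 exactly and 792 without the version, and 260 had no match (0.0509% of counts). Groups come from the labels, and the library set was read from the library numbers in them.

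Genes kept by filterByExpr (23736, with 99.925% of counts) were scaled by TMM and fitted with edgeR 4.0.16 in R 4.3.3 by robust quasi-likelihood, over all 30 libraries, with group and library set as terms (23 residual degrees of freedom). Tests were 2-sided, with Benjamini-Hochberg adjustment over the genes tested and a threshold of 0.05. Levels are CPM after TMM. DESeq2 1.42.0 and limma-voom (limma 3.58.1) were alternatives, and the fit was tested on simulated data. P values measure the spread between animals. Named genes were the 10 higher and 10 lower of smallest p, the 4 of largest fold in each direction at a mean log2 CPM of at least 1, up to 4 members of smallest p and 2 of highest level from each of 45 lists (1012 genes), and a short set always allowed. Predicted gene models were left out. The libraries, lists and rules were chosen with earlier results of these data known, so lists were counted and not tested.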

Additional observations from a re-analysis of the deposited data

Results flagged for a closer look

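In each group of 5 libraries, a sample was picked out where its gap to the nearest other sample was above 0.71 of the range of the group. Of 216 groups of values so examined, 22 had such a sample, and chance gives about 1 group in 20. Sham replicate 3 accounts for 10 of them, and these were its high values for Hspg2 at 38.8 CPM, Fmod at 84.1, Slc22a6 at 36.4, Nid1 at 22.3, Col1a1 at 28.3, Slc6a13 at 56.5, Igf2 at 130, H2-Aa at 18.2, Cp at 60.8 and Pnoc at 4.57 CPM. Sham replicate 2 was high for Nlrc5 at 7.94 CPM, Cdkn1a at 22.1 and Arrb1, a desensitiser of receptors, at 428.1 CPM. For Arrb1 the other sham libraries ran from 386 to 398 CPM. Sham replicate 4 was high for Gabrq at 4.91 CPM and low for the pacemaker channel gene Hcn3 at 16.6 CPM.

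In SNI, replicate 5 was low for Dynlrb1 at 79.9 CPM and for Clpp at 35.8 CPM, and high for Bdnf at 14.3 CPM. SNI replicate 2 was high for Tnnt1 at 6.35 CPM and SNI replicate 1 for Igf2 at 27.5 CPM. Total counts stood out in sham replicate 5 at 120.7 M and SNI replicate 5 at 98.0 M, the libraries of the second set.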

How the results depend on the processing

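Of 88 genes examined under 21 alternatives, 80 kept their direction in all, and only Mt2 was ever called, by DESeq2. Many of these genes were named for a small p or large fold in these libraries, and the alternatives use most of the same libraries. A kept direction thus follows in part from that choice. Gabrq and Oprm1 are among the 80, yet were lower in SNI in the second library set. DESeq2 called 1 gene in all, and 100 for the difference of the SNI effect between saline and desipramine, where leaving out sham replicates 2 and 3 gave 3 and leaving out 1 library 0 to 20. With 1 library left out, genes higher at an unadjusted p under 0.05 numbered 556 to 1476 and lower 801 to 1595. Members lower at that p ranged over such fits from 9 to 17 for endothelial cells, 6 to 14 for pericytes, 4 to 9 for basement membrane, 0 to 18 for fibroblasts, 6 to 20 for interferon, 4 to 16 for antigen presentation and 0 to 4 for medium spiny neurons, and members higher from 3 to 44 for oxidative phosphorylation and 3 to 39 for ribosomal proteins. Without sham replicates 2 and 3, those counts were 4, 3, 2, 0, 0, 0, 0, 36 and 39 in this order, with 13 fibroblast, 12 interferon and 6 antigen presentation genes lower at any p. Limma-voom gave 6 for pericytes, 0 for fibroblasts, 7 for interferon and 1 for antigen presentation. With the 10 saline libraries only, the counts were 5 for pericytes, 5 for basement membrane, 2 for fibroblasts, 8 for interferon, 3 for antigen presentation, 15 for medium spiny neurons and 4 for oxidative phosphorylation, and this fit gives no difference between treatments. With no library set term they were 1 for medium spiny neurons, 2 for oxidative phosphorylation and 4 for ribosomal proteins, and with tissue scores as covariates 7 for fibroblasts and 5 for ribosomal proteins. The cause of these shifts was not tested beyond the libraries left out.

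The direction reversed without sham replicates 2 and 3 for the interferon median (0.070), the antigen presentation median (0.074), Cd74 (0.44), H2-Aa (0.33), H2-D1 (0.16), Gfap (0.056), Fos (0.15) and Bdnf (0.34). Fos was 0.26 in the first library set, 0.05 with tissue scores and -0.311 to 0.211 with 1 library left out. Bdnf was 0.23 with limma-voom, 0.20 with no library set term, 0.27 with tissue scores and -0.779 to 0.195 with 1 library left out. Pdyn was 0.052 in the first set. With 1 library left out, Pdyn ran from -0.197 to 0.021, and Cx3cr1 from -0.046 to 0.004.

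The correlation of same-numbered libraries over 16521 genes ran from -0.058 to 0.594 and was over 0.1 in 2 of 5 pairs. Only 1 pair correlated best with its own number. It was replicate 5, at 0.594, whose 2 libraries share the second library set, which was not removed first. Whether the numbers pair animals in some other way was not tested. The replicate block gave 0 genes, with 1057 higher and 1039 lower at an unadjusted p under 0.05, and 5 fibroblast markers lower at that p.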

Other observations

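Other signalling lists gave mixed directions in SNI on saline, and no member passed. Of 24 genes of the GABA system 17 were higher, 5 at an unadjusted p under 0.05 and 1 lower, with a median of 0.10, and Gabrq and Slc6a11 belong to it. Of 46 potassium channel genes 30 were lower with a median of -0.13. Kcna1, a delayed rectifier that limits firing, was 85.1 to 125 CPM in sham and 60.8 to 109 CPM in SNI (-0.47 ± 0.16). Hcn3, a pacemaker channel, was 16.6 to 22.4 CPM in sham and 33.3, 21.4, 36.5, 36.4 and 22.4 CPM in SNI (0.53 ± 0.19), high in the 3 SNI libraries with high septal markers. Of 43 genes of ionotropic glutamate receptors and scaffolds 30 were lower. Grik4, a kainate receptor subunit, was 33.7 to 39.7 CPM in sham and 40.9 to 51.9 CPM in SNI, with no overlap (0.31 ± 0.10, adjusted p = 0.436). Among 24 monoamine receptor genes 13 were lower, and Htr6, a serotonin receptor of medium spiny neurons, was 19.7 to 27.0 CPM in sham and 12.1 to 18.9 CPM in SNI, again with no overlap (-0.49 ± 0.25).

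Of 20 circadian clock genes 14 were lower with a median of -0.08, and of 30 genes of the integrated stress response and chaperones 22 were higher with a median of 0.08. Chromatin regulators were lower in 23 of 38, and Setd1b, a histone methyltransferase, was 73.6 to 90.0 CPM in sham and 66.0 to 76.8 CPM in SNI (-0.23 ± 0.06, adjusted p = 0.418). Cxcl12, a chemokine of vessels and neurons, differed by -0.43 ± 0.15.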
